A study of Mus musculus with 6 samples.

Results

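Glutathione synthesis, recycling and transport was followed through 10 genes: Gclc, Gclm, Gss, Gsr, Slc7a11, Slc3a2, Abcc1, Glrx, Ggct and Chac2. They were chosen by gene symbol, with earlier results of these data known. They were found by matching current names and older synonyms to the annotation of the array. Each matched 1 of 65528 transcript clusters (the array's unit of measurement for a transcript). One group of cells came from Keap1_KO mice, labelled Keap1 -/-, in which VAVcre removes the floxed Keap1 gene (arrays B, C and D). The other came from WT mice, labelled Keap1 +/+ (arrays A, D and F). Both groups were CD4+ CD25+ T cells isolated by magnetic separation from the spleens of untreated male C57BL/6 mice. The labels give the age as 10 to 12 months in one field and 6 to 10 weeks in another. VAVcre acts across blood-forming cells, so the deletion is not limited to T cells. The labels call the triplicates independent without tying each array to a mouse, so the p-values describe variation from array to array, which may be technical in part.

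Glutathione is a tripeptide of glutamate, cysteine and glycine, and the main small thiol of the cell. The rate-limiting glutamate-cysteine ligase joins glutamate to cysteine, glutathione synthetase adds glycine, and glutathione reductase uses NADPH to regenerate the thiol after oxidation. KEAP1 keeps NRF2, a transcription factor encoded by Nfe2l2, low by sending it for degradation, and Gclc, Gclm, Gsr, Slc7a11 and Abcc1 are textbook NRF2 targets. T cells raise their glutathione supply when they are activated and proliferate.

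Values are the authors' deposited log2 values, and a difference is the Keap1_KO mean minus the WT mean on that scale, from limma with Benjamini-Hochberg adjustment over all genes tested. Of the 10 genes, 9 had a higher mean in Keap1_KO and in 6 every Keap1_KO array lay above every WT array. None passed the adjusted threshold of 0.05, and 0 of the 16825 genes tested did (0%). At an unadjusted limma p under 0.05, 5 of the 10 passed, all higher in Keap1_KO, against 8.38% of genes tested in that direction and 10.3% in either. All Keap1_KO arrays exceeded all WT arrays in 9.11% of genes tested and 4.08% of all clusters. With other limma settings, trended and robust variances called 1 gene (0.00594%) and none of the 10, and array weights called 1880 genes (11.2%) and 3 of the 10, Gsr, Abcc1 and Glrx. The median difference was 0.58 over the 10 genes and 0.06 over all genes tested. Of the 10, 8 passed the filter on low values, which asks for a value at or above the array's median on at least 3 of 6 arrays. Slc7a11 fell below it and Gclm sits on a cluster shared with the predicted gene Gm6061, so both take their values from a fit over all 65528 clusters, where 0 passed (0%) and 4575 had an unadjusted p under 0.05 (6.98%).

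The targeted gene and a standard NRF2 target were read first. Keap1 read 4.87, 4.89 and 4.70 in Keap1_KO B, C and D, against 5.30, 5.41 and 5.77 in WT A, D and F. All Keap1_KO values lay below all WT values, on a dim cluster that was above the array median on 2 arrays. The difference was -0.67 (limma adjusted p = 0.68 over all clusters). Nqo1, a quinone reductase, read 8.50, 7.55 and 9.14 in Keap1_KO B, C and D, against 4.68, 4.69 and 5.03 in WT. The Keap1_KO arrays all stood well above the WT arrays, and the lowest of them for Nqo1 was C. The WT values lay below the medians of their arrays, so Nqo1 passed the filter on low values through the Keap1_KO arrays alone. Its difference was 3.60 (limma adjusted p = 0.31). Nfe2l2 itself averaged 9.94 ± 0.81 in Keap1_KO and 8.93 ± 0.63 in WT (SD, n = 3 each), with overlapping arrays.

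The first step of synthesis had higher means in Keap1_KO for both of its subunits. Gclc, the catalytic subunit of glutamate-cysteine ligase, read 9.42, 9.93 and 9.91 in Keap1_KO B, C and D, against 9.05, 9.11 and 7.99 in WT A, D and F. The groups did not overlap, WT F was far below the other WT arrays, and Keap1_KO B was closest to WT. The difference was 1.04 (SE 0.35, 2.05-fold, 95% interval 0.20 to 1.87, limma adjusted p = 0.476), and it was 0.68 without WT F. Gclm, the modifier subunit that raises the ligase's affinity for glutamate, read 8.32, 8.62 and 8.60 in Keap1_KO, against 8.01, 8.27 and 7.68 in WT. Keap1_KO B exceeded WT D by 0.05, so the groups only just separated. The difference was 0.53 (SE 0.19, 1.44-fold, 95% interval 0.06 to 1.0, adjusted p = 0.68), and probes on the shared cluster may also report the predicted gene.

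The later step and the breakdown enzymes showed smaller differences. Gss, glutathione synthetase, read 6.35, 6.48 and 6.48 in Keap1_KO B, C and D, against 5.98, 5.88 and 6.43 in WT A, D and F. WT F lay inside the narrow Keap1_KO range, while the other WT arrays lay below it. The difference was 0.34 (95% interval -0.13 to 0.81, adjusted p = 0.501). Ggct, a gamma-glutamylcyclotransferase of the gamma-glutamyl cycle, read 7.98, 8.77 and 8.98 in Keap1_KO, against 8.42, 8.40 and 7.83 in WT. Keap1_KO C and D were above every WT array and Keap1_KO B was below WT A and D, giving a difference of 0.36 (95% interval -0.40 to 1.13, adjusted p = 0.616). It was 0.16 without Keap1_KO D, 0.17 without WT F and 0.66 without Keap1_KO B. Chac2, which degrades glutathione inside the cell, read 6.57, 6.67 and 6.87 in Keap1_KO, against 6.93, 6.46 and 6.73 in WT. Its arrays intermingled, its difference was -0.00124, and the 95% interval of -0.46 to 0.46 bounds the difference on either side. Its sign depended on the scale: with each array centred on its median, or after a repeated quantile normalization, the difference was 0.11.

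Recycling and thiol repair held the largest difference of the 10 genes. Glrx encodes glutaredoxin, which uses glutathione to remove glutathione from protein thiols. It read 8.89, 10.41 and 10.21 in Keap1_KO B, C and D, against 8.07, 8.52 and 7.72 in WT A, D and F. All Keap1_KO arrays were above all WT arrays, with C and D far above and B nearer to WT D. The difference was 1.74 (SE 0.44, 3.33-fold, 95% interval 0.67 to 2.80, adjusted p = 0.476). Without Keap1_KO B it was 2.21 and passed (adjusted p = 0.036), in a fit that called 569 genes (3.38%), and over 13 alternatives its adjusted p ran from 0.036 to 0.90. Gsr, glutathione reductase, read 9.13, 9.18 and 9.80 in Keap1_KO, against 8.13, 8.86 and 8.42 in WT. The groups did not overlap and Keap1_KO D stood above B and C. The difference was 0.90 (SE 0.28, 1.87-fold, 95% interval 0.23 to 1.57, adjusted p = 0.476), and it was 0.68 without Keap1_KO D.

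**Figure D1:**
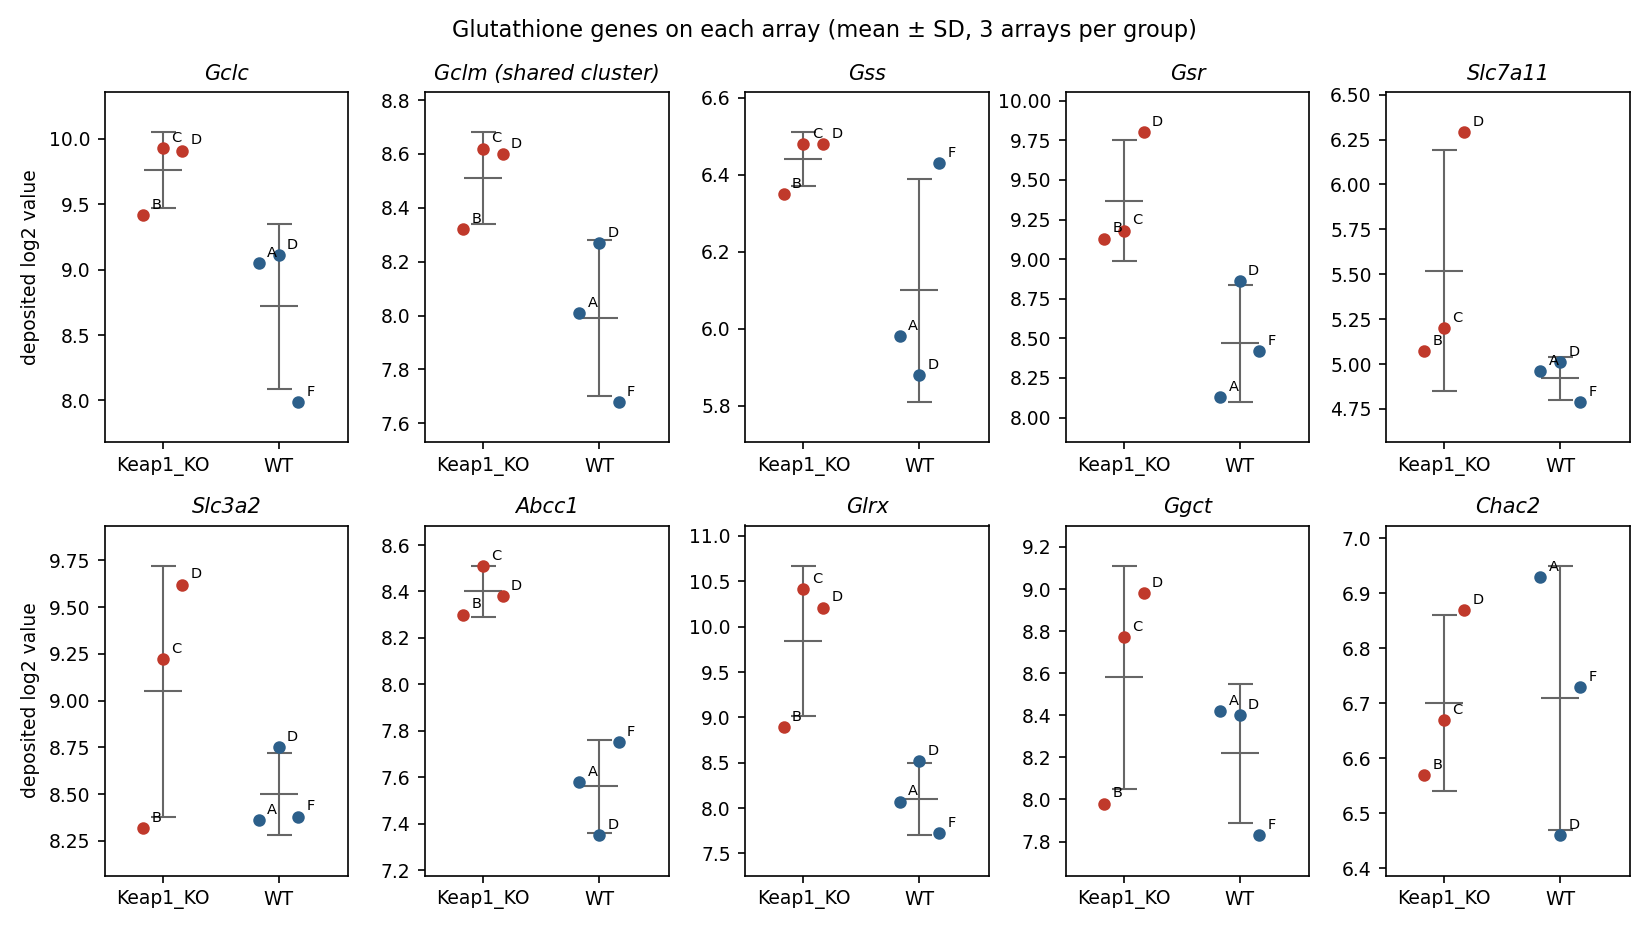
Deposited log2 value (y axis, a separate range in each panel) of the 10 genes on each array, Keap1_KO on the left and WT on the right, with letters naming the arrays, horizontal marks for the mean and bars for the SD over 3 arrays. In Abcc1 the lowest Keap1_KO array (8.30) is clear of the highest WT array (7.75), whereas in Chac2 the arrays intermingle.

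Transport split into 1 gene with tight groups and a pair whose Keap1_KO arrays were widely spread. Abcc1 encodes MRP1, the pump that exports glutathione, its oxidized disulfide and glutathione conjugates. It read 8.30, 8.51 and 8.38 in Keap1_KO B, C and D, against 7.58, 7.35 and 7.75 in WT A, D and F. The groups were separated by 0.56, the widest gap among the 10 genes, and all Keap1_KO arrays lay close together. The difference was 0.84 (SE 0.17, 1.79-fold, 95% interval 0.42 to 1.26, adjusted p = 0.476, unadjusted p = 0.00252). Leaving out any 1 array moved it only between 0.73 and 0.93. A difference at least as large was found in 9.42% of genes tested.

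Slc7a11 encodes xCT, the light chain of a cystine-glutamate exchanger, and Slc3a2 encodes the heavy chain. The exchanger brings in the cystine that limits glutathione synthesis. Slc7a11 read 5.07, 5.20 and 6.29 in Keap1_KO B, C and D, against 4.96, 5.01 and 4.79 in WT A, D and F. Only Keap1_KO D reached the median of its array, and Keap1_KO B exceeded WT D by 0.05. The difference was 0.60 (95% interval -0.22 to 1.42, adjusted p = 0.68), and it was 0.21 without Keap1_KO D. Slc3a2, which also pairs with other amino acid carriers as CD98, read 8.32, 9.22 and 9.62 in Keap1_KO, against 8.36, 8.75 and 8.38 in WT. Keap1_KO B was the lowest of all 6 arrays and Keap1_KO D the highest. The difference was 0.55 (95% interval -0.29 to 1.40, adjusted p = 0.518), with 0.27 without Keap1_KO D and 0.92 without Keap1_KO B.

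**Figure D2:**
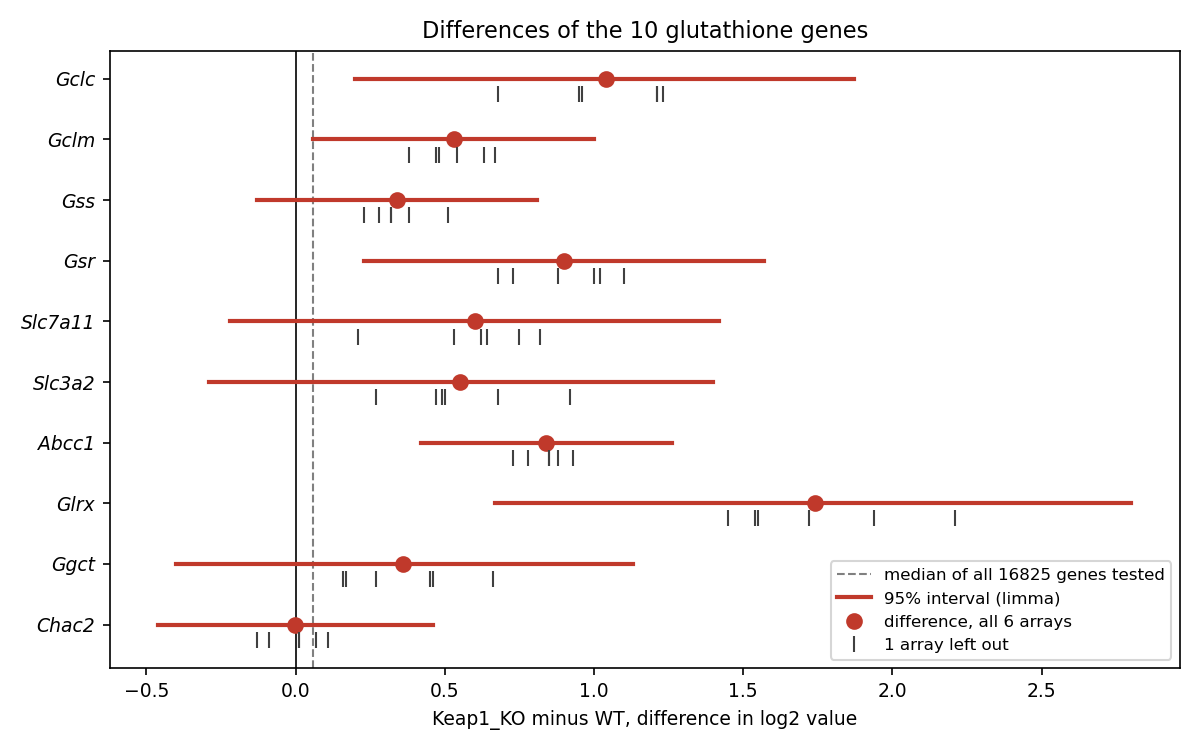
Difference between the Keap1_KO and WT means in log2 value (x axis) for each of the 10 genes, with dots for all 6 arrays, bars for the 95% limma interval and ticks for the fits with 1 array left out. The intervals of Gclc, Gclm, Gsr, Abcc1 and Glrx lie above 0, those of the other genes include it, and the dashed line marks the median of all genes tested at 0.06.

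The Keap1_KO arrays kept a similar order in many of the 10 genes, while the order of the WT arrays was near that in all genes tested. Averaged over the 10, the deviation from each gene's own mean was -0.04, 0.43 and 0.64 (Keap1_KO B, C and D), against -0.32, -0.21 and -0.50 (WT A, D and F). Keap1_KO B was the lowest Keap1_KO array in all 10 genes, whereas it was the lowest in 46.9% of genes tested. WT F was the lowest WT array in 5 of the 10 (48.2% of genes tested) and WT D the highest in 6 (46.8%). For Keap1 and Nqo1, Keap1_KO B was not the array nearest to WT.

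Markers of other cells also differed between arrays, and in cells isolated in bulk more cells of a type and more RNA per cell cannot be told apart. The 10 neutrophil markers averaged 8.09, 10.29 and 12.26 on Keap1_KO B, C and D, against 7.99, 9.19 and 8.36 on WT A, D and F. All 10 had a higher mean in Keap1_KO and all 10 were at or above the array median on at least 3 arrays. The mean of the neutrophil markers on Keap1_KO B lay inside the WT range. Single markers differed there: Mpo (6.9) was above every WT array, Ngp, Camp and Lcn2 were below every WT array, and the others lay inside. The 6 glutathione genes without overlap were by definition above every WT array on Keap1_KO B, so this gives no information on neutrophil signal. The other 4, Gss, Slc3a2, Ggct and Chac2, were not above every WT array there. That too was fixed by their overlap, since Keap1_KO B was the lowest Keap1_KO array in all 10 genes. Keap1_KO D had the most neutrophil signal and the highest Keap1_KO value in 6 of the 10 genes, against 36.5% of genes tested. Among the 6 were Slc7a11, Slc3a2 and Ggct, whose differences shrank without Keap1_KO D. Leaving out a gene's highest Keap1_KO array always lowers its difference, so this shrinkage gives no information on neutrophil signal. The part of neutrophils in those differences was not tested.

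The other marker lists followed several patterns. The 6 NK cell markers averaged 7.92, 7.73 and 9.46 on Keap1_KO B, C and D, against 8.02, 9.06 and 6.69 on WT A, D and F. The 5 B cell markers with a cluster of their own averaged 8.32, 7.48 and 9.24, against 7.44, 8.76 and 6.46 in the same order of arrays. Both lists were highest on Keap1_KO D and lowest on WT F. The 4 plasma cell markers averaged 7.55, 8.70 and 9.85 in Keap1_KO, against 7.74, 8.76 and 7.70 in WT. The 8 macrophage and monocyte markers averaged 5.80, 6.15 and 6.60 in Keap1_KO, against 5.71, 6.27 and 5.59 in WT. In that list Lyz2 was high, whereas C1qa, Cd14 and Fcgr1 were below the median of every array. The 2 CD8 T cell markers averaged 6.67, 8.32 and 8.38 in Keap1_KO, against 6.99, 7.79 and 6.34 in WT, and the 4 platelet and megakaryocyte markers 6.30, 6.87 and 6.68, against 6.54, 6.23 and 6.17. The means of both lists, like that of the neutrophil markers, were higher on Keap1_KO C and D than on every WT array, with Keap1_KO B inside the WT range. Among the 4 platelet and megakaryocyte markers, 2 had a higher mean in Keap1_KO (Pf4 and Ppbp), while Gp9 and Itga2b had a lower one. The 4 erythroid markers averaged 6.06 in Keap1_KO and 6.15 in WT. For the labelled cell type, 6 Treg and CD4 T cell markers were read (Il2ra, Ctla4, Ikzf2, Cd4, Cd3e and Cd3g). They averaged 13.92, 14.29 and 14.31 in Keap1_KO, against 13.72, 13.98 and 13.72 in WT. These high values show the transcripts present on every array and do not measure the purity of the cells. The mean of these 6 was also higher on Keap1_KO C and D than on every WT array, with Keap1_KO B inside the WT range. Single markers differed, and 4 of the 6 had a higher mean in Keap1_KO. Cd4, Cd3e and Cd3g were above every WT array on both Keap1_KO C and D. Ikzf2 was below every WT array on both, and Ctla4 lay inside the WT range on both. Il2ra was just above every WT array on Keap1_KO C and below every WT array on Keap1_KO D. Foxp3 sits on a cluster shared with other transcripts and is not in the mean of these 6 markers. Lck, also listed, had no cluster of its own and is not in that mean either.

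**Figure D3:**
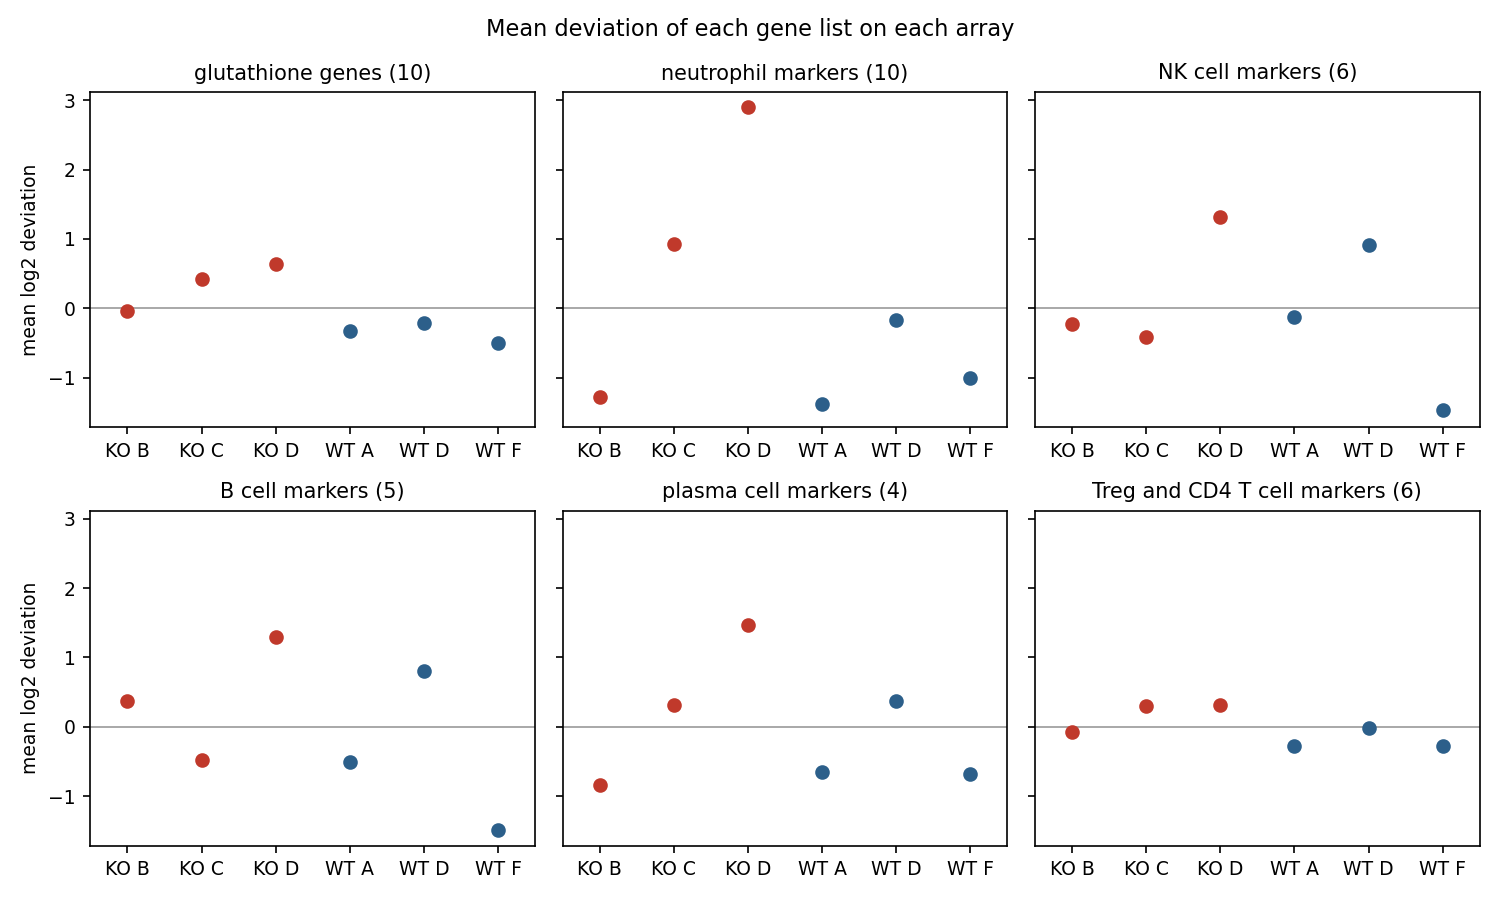
Mean deviation in log2 value (y axis, common to all panels) of the 10 glutathione genes and of 5 marker lists on each array (x axis), with Keap1_KO in red on the left and WT in blue on the right. The mean of the neutrophil markers is highest on Keap1_KO D and lies inside the WT range on Keap1_KO B. The mean of the glutathione genes on Keap1_KO B (-0.04) is the lowest of the Keap1_KO arrays and above all WT arrays. It includes 6 genes that are above all WT arrays there by definition, so it gives no information on neutrophil signal.

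Other genes of the pathway were read from 55 genes in 6 groups by role. Of these, 34 passed the filter, 14 were below it, 3 share a cluster with another symbol and 4 matched no cluster by symbol. None of the 34 passed the adjusted limma threshold in either direction (0% of all genes tested). Of the 34, 24 had a higher mean in Keap1_KO, against 56.5% of genes tested, and their median difference was 0.36. At an unadjusted limma p under 0.05, 7 passed with a higher mean and 0 with a lower one, against 8.38% and 1.92% of genes tested. Groups did not overlap in 7 genes higher and 1 lower in Keap1_KO, against 9.11% and 4.96% of genes tested.

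Genes that feed cysteine and glycine into synthesis had differences of both signs. Slc1a5, a carrier of glutamine and other neutral amino acids, read 8.76, 9.04 and 8.88 in Keap1_KO B, C and D, against 8.31, 8.01 and 8.05 in WT A, D and F. Like Abcc1 it had tight groups that did not overlap (difference 0.77, SE 0.17, limma adjusted p = 0.476). Ahcy, which releases homocysteine for cysteine synthesis, differed by 1.42 with overlapping arrays, since Keap1_KO B (8.89) lay below WT A (8.91) and WT D (9.13). Slc38a2, a carrier of small neutral amino acids, differed by -0.61 (95% interval -1.35 to 0.12), and its relative Slc38a1 by -0.04. Cth and Cbs, the enzymes that make cysteine from homocysteine, were below the filter. The mitochondrial enzyme gene Shmt2, which makes glycine from serine, differed by 1.32 (95% interval 0.08 to 2.56), again with overlap. Its cytosolic counterpart Shmt1 differed by 0.17, and the glycine carrier gene Slc6a9 by -0.06.

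Breakdown genes showed no difference beyond the spread. Of 5 tested, 3 had higher and 2 lower means. Lap3, a leucine aminopeptidase, differed by 0.48 and Cndp2, which splits the dipeptide cysteinylglycine, by 0.40. Ggact and Ggt5, a gamma-glutamyl transferase family gene, differed by -0.11 and -0.09. Every one of these intervals included 0. Chac1, the stress-induced relative of Chac2, was below the array median on every array.

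Among 9 transport genes tested, 4 had higher and 5 lower means, with a median of -0.06. Slc25a11, the mitochondrial oxoglutarate carrier, read 9.11, 10.36 and 10.35 in Keap1_KO B, C and D, against 8.85, 8.90 and 8.46 in WT A, D and F. Its groups did not overlap, and Keap1_KO C and D stood apart from B (difference 1.20, SE 0.37, limma adjusted p = 0.476). Abcg2, an efflux pump of wide substrate range, averaged 8.43 ± 0.26 in Keap1_KO and 7.88 ± 0.18 in WT (SD, n = 3 each), without overlap (difference 0.55). Slc25a39, the mitochondrial glutathione importer gene, differed by 0.33 (95% interval -0.23 to 0.88) and its relative Slc25a40 by -0.24, both with overlapping arrays. Abcc5, a relative of Abcc1, differed by -0.29. The difference of Abcc1 (0.84) compares with those of its family members Abcc3 (0.38), Abcc4 (-0.15), Abcc5 and Abcc10 (-0.06), and these differences were not tested against each other.

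Enzymes that use glutathione or supply its reductase were the most one-sided of the 6 groups. All 8 tested glutaredoxin and glutathione-dependent enzyme genes had higher means in Keap1_KO, against 56.5% of genes tested, with a median of 0.63. None of the 8 had an unadjusted limma p under 0.05, and groups did not overlap in only 1 of them, Glrx2. Ethe1, a mitochondrial persulfide dioxygenase, differed by 1.27 (95% interval -0.03 to 2.57) and Esd, S-formylglutathione hydrolase, by 0.95 (-0.35 to 2.24), both with overlapping arrays. Glrx differed by 1.74, whereas Glrx5 and Glrx2, its mitochondrial relatives, differed by 0.63 and 0.18. All 5 tested NADPH supply genes also had higher means (median 0.77). The list held 8: G6pdx, the gene of glucose-6-phosphate dehydrogenase, matched no cluster, Tkt sits on a shared cluster, and 1 was below the filter. Taldo1, a transaldolase of the pentose phosphate pathway, read 7.75, 9.49 and 9.89 in Keap1_KO B, C and D, against 7.40, 7.63 and 7.03 in WT A, D and F. It did not overlap, and Keap1_KO B again lay nearest to WT (difference 1.69, SE 0.55, limma adjusted p = 0.476). Pgls, which acts just after glucose-6-phosphate dehydrogenase, differed by 1.02 (95% interval 0.25 to 1.79), also without overlap.

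**Figure D4:**
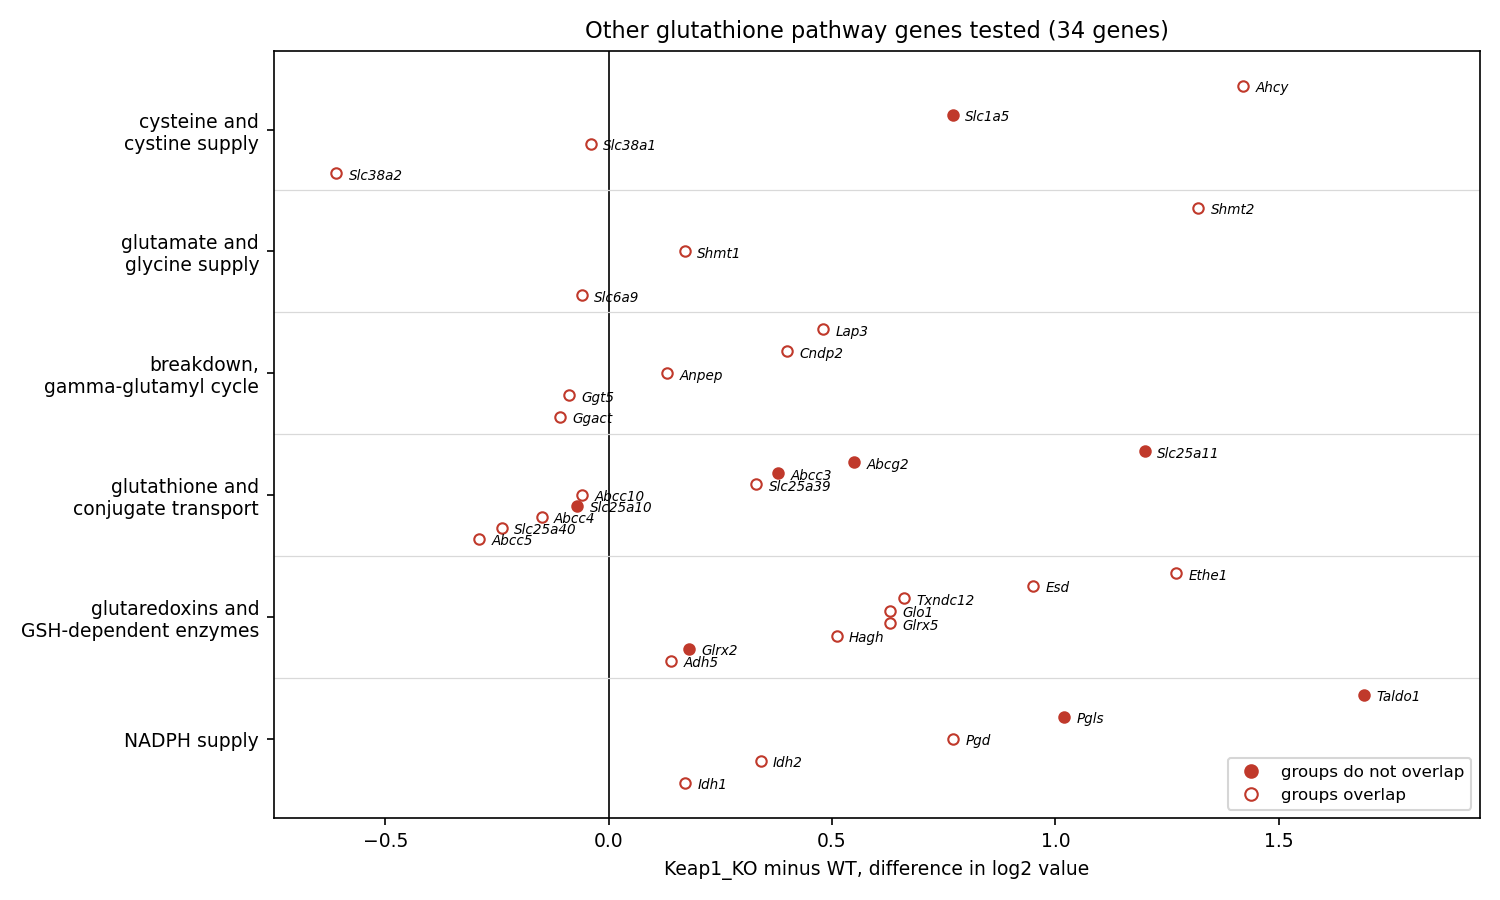
Difference between the Keap1_KO and WT means in log2 value (x axis) of the 34 other pathway genes tested, grouped by role from precursor supply at the top to NADPH supply at the bottom, with filled dots where the groups of arrays do not overlap. All 8 glutaredoxin and glutathione-dependent enzyme genes and all 5 NADPH supply genes lie to the right of 0, while transport genes lie on both sides.

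The genes whose 6 array values were most like those of Gclc were found by the root mean square distance between values centred on each gene's own mean. They were Cldnd1 (distance 0.119), Uxt (0.123), Tgfb1 (0.141), Gm16712 (0.144) and Ddx54 (0.145), each with WT F lowest as in Gclc. The median distance over all other genes tested was 0.652. The glutathione genes were farther from Gclc than these. Gclm (0.343), measured on its shared cluster and so outside the ranking, was the nearest of them, followed by Ggct (0.408) and Gsr (0.441) at ranks 1844 and 2491 of 16824, and Gss (0.648) and Chac2 (0.67) the farthest. The distances share the same 6 arrays and are given as a description.

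Sequence just before the start of each gene was read from RefSeq (build GRCm38.p6), which gave promoters for 7 of the 10 genes: Gclm, Gss, Slc7a11, Slc3a2, Glrx, Ggct and Chac2. In the 250 bases before the start, 3 motifs were searched on both strands. TGACNNNGC is the core of the antioxidant response element bound by NRF2 with small MAF proteins, TGAGTCA is the AP-1 element, and TGATGNAA is the C/EBP-ATF element bound by ATF4. They occur in 10.2%, 4.46% and 3.45% of the 32851 promoters of that table. The element core was found in 2 of the 7 genes, Gclm and Ggct, the AP-1 element in Glrx, and the C/EBP-ATF element in Slc7a11, at 2 places. The 4 promoters with a match are printed because they belong to genes of synthesis, breakdown, cystine uptake and thiol repair with unlike differences (0.53, 0.36, 0.60 and 1.74). Capitals mark the matched letters, and each sequence runs 5′ to 3′ on the strand of the gene.
Gclm, chr3:122245307-122245556, plus strand: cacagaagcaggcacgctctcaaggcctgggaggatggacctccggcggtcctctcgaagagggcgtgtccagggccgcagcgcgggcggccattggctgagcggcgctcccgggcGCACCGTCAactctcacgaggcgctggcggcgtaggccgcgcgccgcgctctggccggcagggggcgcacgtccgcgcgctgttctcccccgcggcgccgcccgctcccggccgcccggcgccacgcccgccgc
Ggct, chr6:54992868-54993117, minus strand: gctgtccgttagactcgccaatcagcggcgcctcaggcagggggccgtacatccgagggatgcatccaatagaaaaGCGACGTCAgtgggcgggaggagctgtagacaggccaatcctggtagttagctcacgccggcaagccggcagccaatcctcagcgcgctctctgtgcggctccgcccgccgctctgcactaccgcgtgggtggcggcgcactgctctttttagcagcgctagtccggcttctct
Slc7a11, chr3:50443614-50443863, minus strand: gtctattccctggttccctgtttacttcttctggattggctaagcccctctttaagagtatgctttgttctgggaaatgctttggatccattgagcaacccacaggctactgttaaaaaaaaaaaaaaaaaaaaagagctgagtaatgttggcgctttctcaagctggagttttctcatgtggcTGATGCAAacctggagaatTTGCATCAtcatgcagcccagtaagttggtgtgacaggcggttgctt
Glrx, chr13:75839635-75839884, plus strand: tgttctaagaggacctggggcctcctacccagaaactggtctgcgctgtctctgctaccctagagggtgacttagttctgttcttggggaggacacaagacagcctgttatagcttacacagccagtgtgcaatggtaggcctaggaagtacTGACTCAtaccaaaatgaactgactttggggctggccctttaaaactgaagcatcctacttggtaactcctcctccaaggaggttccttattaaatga
In Gclm the match GCACCGTCA spans bases 134 to 126 before the start, on the opposite strand. In Ggct the match GCGACGTCA spans bases 174 to 166, also on the opposite strand. In Slc7a11 the first C/EBP-ATF match spans bases 66 to 59 and the second, on the opposite strand, bases 47 to 40. In Glrx the AP-1 match spans bases 98 to 92, on an element that reads nearly the same on both strands. The promoters of Gss, Slc3a2 and Chac2 held none of these letters in this window. A match is a run of letters and not a measured binding site, and genes with and without one were not compared.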

How the data were processed

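RNA of splenic CD4+ CD25+ T cells was measured on 6 expression arrays. The authors deposited a log2 value for each transcript cluster on each array. The submitters' processing notes name RMA, Transcriptome Analysis Console and Affymetrix Expression Console, without versions. Per the labels' protocols, 40 ng of total RNA was amplified. No genome build of the array is stated in the labels. Values ran from 1.88 to 19.93, and 1268 clusters exceeded 16, the log2 limit of a 16-bit scanner, so an unstated rescaling stands behind them and folds are on the deposited scale. Array medians lay between 5.16 and 5.43. Of 65528 clusters, 30354 carry 1 symbol, 2118 several and 33056 are unnamed here, by a match of row identifiers to a platform annotation table. A Mouse Gene array is named in the design text, but the identifiers match a table made for another Affymetrix platform, so every gene name rests on that match. Symbols were updated through Entrez identifiers. The highest-mean cluster stood for a gene, which left 16825 genes after the filter.

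Groups came from the sample titles. The comparison of Keap1_KO with WT used limma 3.58.1 in R 4.3.3 (lmFit, eBayes, two-sided), with single values also by an exact permutation test, whose smallest p with 3 arrays against 3 is 0.1. That was its p for each of the 6 genes without overlap. The number of arrays limits the precision. The alternatives were a repeated quantile normalization, centred arrays, no filter, a stricter filter, trended and robust variances, array weights, another choice of cluster, and leaving out each array. Members, lists and tests were chosen with earlier results of these data known. Named were all 10 genes, up to 2 of each pathway group with the largest difference in each direction, Keap1, Nfe2l2, Nqo1 and the 5 genes nearest to Gclc. Abcc3, Abcc4, Abcc10, Glrx2, Glrx5, Cth, Cbs, Slc25a39, Chac1 and single markers were named after their values were seen. Foxp3, Lck, G6pdx and Tkt were named as listed genes without a cluster of their own.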

Additional observations from a re-analysis of the deposited data

How the results depend on the processing

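No paired analysis was possible because the groups share only 1 replicate letter, D. Over 13 alternatives, 9 of the 10 genes kept a higher mean in Keap1_KO in each. Chac2 was the exception, with 0.11 after a repeated quantile normalization, 0.11 with each array centred on its median, and from -0.13 (without WT D) to 0.11 (without WT A) with 1 array left out. Its difference was also above 0 without Keap1_KO B (0.07), Keap1_KO C (0.01) and WT F (0.01). The cause was not tested. The count of glutathione genes past the threshold was 0 in all alternatives but a pair. It was 3 with limma array weights (Gsr, Abcc1 and Glrx, adjusted p 0.0428, 0.0408 and 0.0408), where 1880 genes were called (11.2%), and 1 without Keap1_KO B (Glrx), and leaving out 1 array gave 0 to 1. The count of other pathway genes past the threshold was 10 with array weights, 9 higher in Keap1_KO and Slc38a2 lower (-0.85). It was 2 without Keap1_KO B, both higher, in a fit that called 3.38% of genes tested. Its range was 0 to 2 over the arrays left out. The array weights were lowest for Keap1_KO B (0.352) and highest for WT A (3.38). The median difference of the 10 genes ran from 0.40 without Keap1_KO D to 0.85 without Keap1_KO B. Non-overlapping genes numbered 6 to 9 with 1 array left out. The 9 came without Keap1_KO B, where 31.4% of all genes tested did not overlap in that direction, and without WT D it was 6 against 23.7%. Trended and robust variances called 1 of all genes (Gm20658, named after its values were seen) and 0 of these. Centring arrays moved the median of all genes from 0.06 to 0.17 and that of the 10 genes to 0.69. Slc7a11 and Keap1 are limited by low signal.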
